A study of Mus musculus with 2 samples.

Results

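The Hox genes encode homeodomain transcription factors and lie in 4 clusters, A to D. All rows of the deposited gene table whose symbol is Hox followed by a cluster letter and a paralog number were taken, which gave 35 of 18067 genes. RefSeq lists 39 such genes in mouse, and Hoxc9, Hoxc11, Hoxc12 and Hoxc13 were not analysed here. Of the 35 genes, 11 belong to cluster A, 10 to cluster B, 5 to cluster C and 9 to cluster D. The 2 libraries together averaged 1 TPM or more for 27 of them, called measured below, and less for the other 8. TPM is a share of the library corrected for transcript length, so that levels can be compared between genes.

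Bulk RNA was sequenced from mouse small intestine, from cells labelled as intestinal stem cells and also tagged as a cell line of that name. The wild-type group and the group with a knockout of circBtnl1, a circular RNA named after the butyrophilin-like gene Btnl1, each held 1 library. Strain, age and sex of the mice, the way the allele was made and any pooling of animals were not given in the sources used here. With 1 library a group there is no test and no error between mice, and what is compared are the 2 libraries, not the genotypes.

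As background, Hox genes are arranged along each cluster in the order in which they are used along the body axis. Low paralog numbers act anteriorly and high numbers posteriorly, and genes with the same number in different clusters are paralogs. In the gut, Hox genes are expressed in epithelium and in the surrounding mesenchyme, and group 13 genes mark the hindgut. Paralog numbers 1 to 3 are called anterior here, 4 to 8 central and 9 to 13 posterior.

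The labelled origin was set against marker genes chosen as defining, some of them outside the rule for named genes. Epithelial markers were abundant, with 12 of 12 measured and Krt8 at 9793 TPM (wild type) and 5409.5 TPM (knockout). The stem cell marker Lgr5 was low, at 3.13 and 1.55 TPM, and Olfm4 stood at 0.2 TPM and a listed 0, although 16 of 18 stem cell markers were measured, with Slc12a2 at 55.2 and 62.1 TPM. Gata4, a factor of the proximal small intestine, stood at 0.94 and 0.44 TPM, and the lactase gene Lct at a listed 0 and 0.04 TPM. Of the 14 proximal markers 8 and 9 lay under 1 TPM, while others were well above it, such as Slc40a1 at 111 and 38.6 TPM and Rbp2 at 26.8 and 52.0 TPM. The colonic enzyme gene Car1 stood at 6272 and 15252 TPM. In both libraries the colon list summed higher (61619 and 51138 TPM) than the proximal (192 and 140 TPM) and distal small intestine lists (5981 and 6184 TPM). These levels go against the labelled small intestine, though Gata4 and Lct bear on its proximal part only. The low Lgr5 and Olfm4 go against the labelled stem cells, but other stem cell markers were higher, such as Lrig1 at 36.4 and 49.2 TPM. Of the 18 stem cell markers 2 and 3 lay under 1 TPM, so the list as a whole does not settle that label. The labels were kept, and posterior Hox levels are given beside this. Low values placed the depth near 18500000 reads (wild type) and 16000000 reads (knockout). At that depth 3 reads on a transcript of 2000 bases are worth 0.168 and 0.186 TPM. This is approximate, as 53.3% and 48.9% of the low genes used lay within 0.15 of a whole read, where evenly spread values give 30%. Each depth was picked as the one with the highest such share, so a share above 30% was partly fixed in advance.

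The members share the homeobox, a stretch of 60 codons for the DNA-binding homeodomain, which was found in the GENCODE transcripts of all 35 genes. The codons 42 to 57, which encode the helix that reads the DNA, are shown for the group 13 genes, whose values differed between clusters. Capitals mark codons 48 to 53, in the middle of that helix.
Hoxa13: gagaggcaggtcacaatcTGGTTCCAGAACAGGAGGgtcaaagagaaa
Hoxb13: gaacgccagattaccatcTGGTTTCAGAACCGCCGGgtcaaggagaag
Hoxd13: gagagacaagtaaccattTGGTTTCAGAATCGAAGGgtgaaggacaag

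Across the whole homeobox of 180 bases, Hoxa13 and Hoxb13 shared 68.9% of bases, Hoxa13 and Hoxd13 73.9%, and Hoxb13 and Hoxd13 67.2%. Words of 50 bases common to the coding transcripts of different Hox genes were nearly absent. The largest share, 0.4% of the words of Hoxa6, was shared with Hoxb4. No source used here gives the read length.

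Anterior and central Hox genes were mostly higher in the knockout library, and posterior genes were within 2-fold or lower. A log2 ratio above 0 was found for 5 of 5 measured anterior and 11 of 12 central genes, and for 70.2% of all measured genes. Differences of 2-fold or more lay mainly in clusters B and D, while 9 of 10 measured genes of cluster A lay within 2-fold. In the knockout library 11 of the 27 measured genes (40.7%) were higher by 2-fold or more on the log2(TPM + 0.1) scale, and 4 (14.8%) were lower by as much. Over all 12666 measured genes of the table, 23.1% were higher and 5.25% lower by as much. The median log2 ratio of the Hox genes was 0.60, beside 0.39 for all measured genes. Relative to that median gene, 9 Hox genes were 2-fold higher and 6 were 2-fold lower, against 13.5% and 10.2% of all measured genes.

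By position, 4 of 5 measured anterior genes and 7 of 12 central genes were higher by 2-fold or more, and none (0) of either class was lower by as much. Relative to the median gene, 2 anterior and 7 central genes were 2-fold higher, and 1 central gene was 2-fold lower. Of 10 measured posterior genes, none (0) was 2-fold higher and 4 were 2-fold lower. Hoxd11 and Hoxd12, which are among the 4, reached the floor of 1 TPM through the wild-type library only. Hoxd3, Hoxd8 and Hoxc6, which are among the higher genes, reached it through the knockout library only. The median log2 ratio was 1.16 for anterior, 1.57 for central and -0.63 for posterior genes. A floor of 5 TPM leaves these genes out, among others. With it 2 anterior and 5 central genes were 2-fold higher, and 2 posterior genes were 2-fold lower. The class medians were then 1.03, 1.70 and -0.14. Relative to the median gene, at the floor of 1 TPM, the medians became 0.77, 1.18 and -1.03. A change of scaling moves all ratios alike and leaves the order of the classes as it is.

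**Figure D1:**
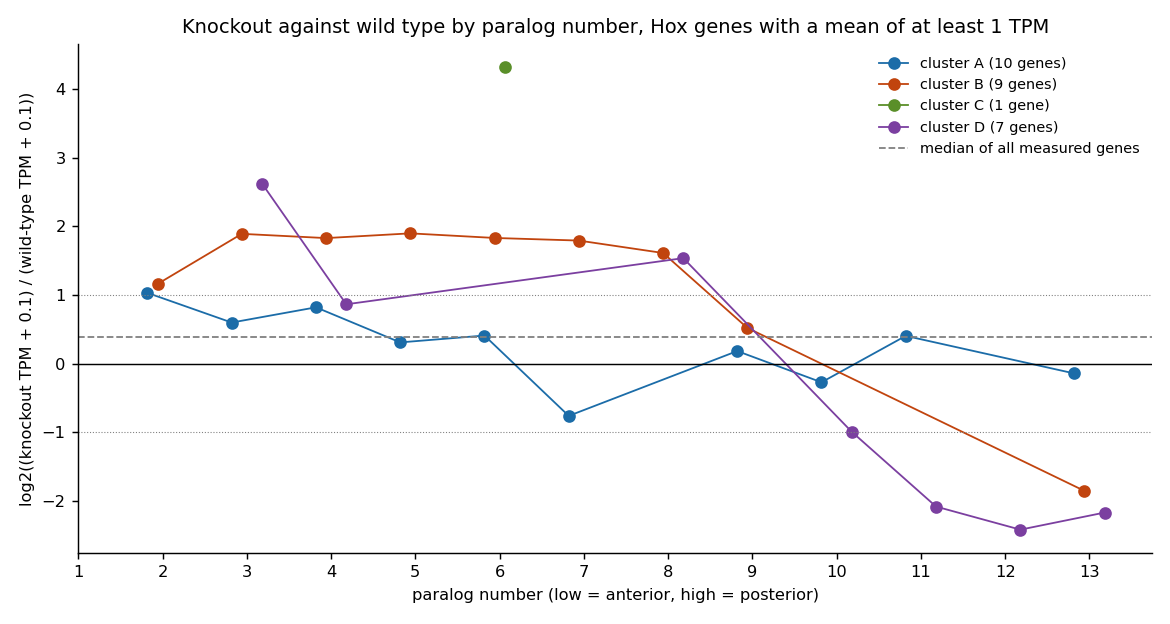
Log2 ratio of knockout to wild-type TPM (y axis, 0.1 added to each value) against paralog number (x axis) for the 27 measured Hox genes, 1 point a gene, coloured and joined by cluster. Points of clusters B and D lie above 0 up to Hoxb9 and Hoxd8 and below 0 at Hoxb13 and from Hoxd10 to Hoxd13, while cluster A stays between -0.76 and 1.03. The dashed line is the median of all measured genes (0.39), and dotted lines mark 2-fold.

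In cluster B (chromosome 11, 96194316 to 96368254, GRCm38), a block of neighbouring genes stood about equally higher in the knockout library, while the gene at the posterior end stood lower. Hoxb3 stood at 5.94 TPM (wild type) and 22.3 TPM (knockout), a 3.75-fold higher value. Hoxb4, known from blood stem cells, stood at 3.49 and 12.6 TPM (3.62-fold). Hoxb5, which acts in the neural crest of the gut, stood at 9.23 and 34.6 TPM (3.75-fold).

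Hoxb6, a gene of the trunk region, was the most abundant of the central genes in the knockout library, at 25.7 against 91.6 TPM (3.56-fold). Hoxb7 stood at 5.12 and 17.97 TPM (3.51-fold), and Hoxb8, which is known from the myeloid lineage, at 7.37 and 22.7 TPM (3.08-fold). Their ratios lay between 3.08 and 3.75, although their levels in the wild-type library ran from 3.49 to 25.7 TPM. Hoxb2, a hindbrain gene, was lower in level and in ratio, at 1.06 and 2.49 TPM (2.35-fold). Relative to the median gene Hoxb2 was the only gene from Hoxb2 to Hoxb8 that stayed within 2-fold. Hoxb1 was listed at 0 (wild type) and had 0.06 TPM (knockout), the level of about 1 read. Exons of Hoxb3 (52.9% of their bases) and Hoxb2 (27.3%) overlap transcripts of the opposite strand, so their values are uncertain if strand was not kept.

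Beyond Hoxb8 the ratio changed along the cluster. Hoxb9, active in the thoracic region, stood at 50.9 and 72.9 TPM (1.43-fold higher). Hoxb13, the posterior gene of hindgut and tail (Entrez gene 15408, chr11:96194316-96196610, plus strand), stood at 429 and 119 TPM, 3.62-fold lower in the knockout library. Hoxb13 lies apart from the block, and it was the most abundant Hox gene in both libraries. In the wild-type library it ranked 387 among all genes by TPM, and in the knockout library 1443. Of all measured genes, 1.77% had a lower ratio than Hoxb13.

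Ratios taken within a library do not depend on the scaling between libraries. The TPM of Hoxb13 was 8.44 times that of Hoxb9 in the wild-type library and 1.63 times in the knockout library. Against Hoxb6 it was 16.7 times and 1.3 times. The order of abundance within the cluster from Hoxb13 through Hoxb9 to Hoxb6 in the wild-type library became Hoxb13, Hoxb6 and Hoxb9 in the knockout library.

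**Figure D2:**
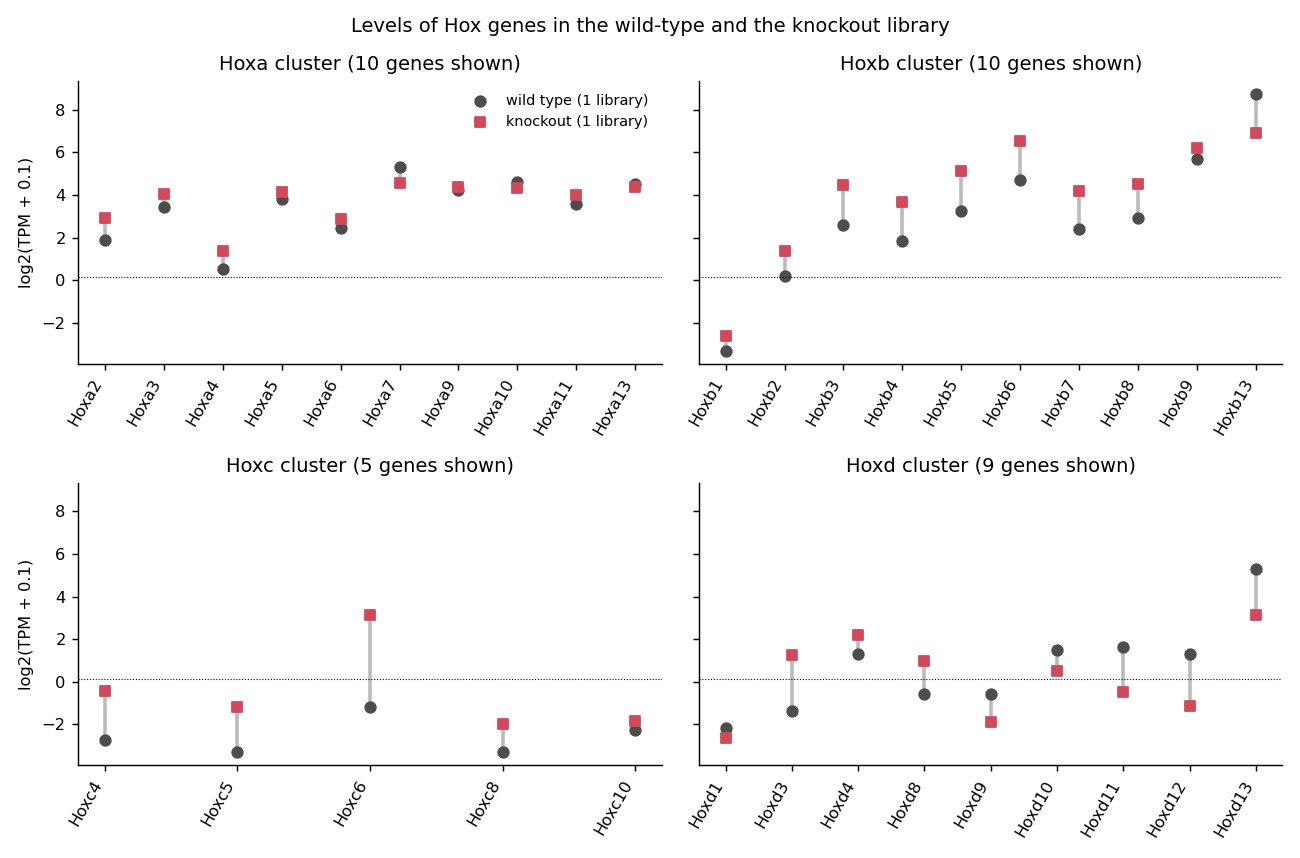
Levels of Hox genes as log2(TPM + 0.1) (y axis) in the wild-type library (circles) and the knockout library (squares), by cluster and ordered by paralog number (x axis), with a grey line joining the 2 values of a gene. In cluster B the squares lie above the circles up to Hoxb9 and below at Hoxb13, and in cluster C all values but that of Hoxc6 in the knockout library lie under the dotted line that marks 1 TPM. In cluster D the squares lie above the circles from Hoxd3 to Hoxd8 and below them elsewhere.

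Cluster D (chromosome 2, 74668225 to 74765142) held the genes with the lowest ratios. Hoxd13, which patterns digits, genitalia and hindgut (Entrez gene 15433, chr2:74668225-74671603, plus strand), stood at 38.8 TPM (wild type) and 8.54 TPM (knockout), 4.54-fold lower. Hoxd12 stood at 2.36 and 0.36 TPM (6.56-fold lower), and Hoxd11, a gene of limb and kidney, at 2.95 and 0.62 TPM (4.76-fold lower). All of the measured genes from Hoxd10 to Hoxd13 were lower in the knockout library, by 2-fold or more except for Hoxd10.

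Hoxd10 stood at 2.73 and 1.32 TPM, a plain ratio of 2.07 that became a log2 ratio of -0.99 once 0.1 was added. Hoxd9 had too low a mean to be measured, at 0.56 and 0.17 TPM. The knockout values of Hoxd11 and Hoxd12 correspond to about 5.5 and 7.3 reads, so that their ratios are less certain than that of Hoxd13 (about 171 reads).

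At the anterior side of cluster D the direction was the opposite. Hoxd3 stood at 0.29 and 2.3 TPM (7.93-fold higher), which correspond to about 7.7 and 55.1 reads. Hoxd4 stood at 2.38 and 4.41 TPM (1.85-fold higher), and Hoxd8 at 0.58 and 1.87 TPM (3.22-fold higher). Hoxd1 was at the level of a few reads, at 0.12 and 0.06 TPM. The values of Hoxd3 and Hoxd4 may be uncertain as separate genes, since their annotated exons overlap each other and those of Gm28230. In GENCODE 62.3% of the exon bases of Hoxd3 and 52.3% of those of Hoxd4 are shared with any other gene of the same strand. The coding transcripts of Hoxd3 and of Hoxd4 had 0 words of 50 bases in common with other Hox genes. Which transcripts were counted is not given in the sources used here. Hoxd13 stood at 16.3 times the TPM of Hoxd4 in the wild-type library and at 1.94 times in the knockout library.

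Cluster A (chromosome 6, 52155367 to 52260880) had nearly the same summed level in both libraries, 152.6 TPM (wild type) and 152.8 TPM (knockout). Of its 10 measured genes, 9 lay within 2-fold, and the other was Hoxa2, which acts in the neural crest of the hindbrain, at 3.63 and 7.51 TPM (2.07-fold higher). Hoxa3, needed for thymus and parathyroid, stood at 10.7 and 16.2 TPM, Hoxa4 at 1.34 and 2.44 TPM, Hoxa5, which acts in lung and gut mesenchyme, at 14.1 and 17.5 TPM, and Hoxa6 at 5.4 and 7.2 TPM. Relative to the median gene, Hoxa2 stood within 2-fold (log2 ratio 0.64) and Hoxa7 was past 2-fold lower (-1.15). On the same scale Hoxa5 and Hoxa9 turned to the lower side (log2 ratios of -0.08 and -0.21), and Hoxa6 and Hoxa11 stood at 0.02 and 0.01.

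Hoxa7 stood apart from its neighbours, at 39.7 TPM (wild type) and 23.4 TPM (knockout), 1.70-fold lower, and it was the most abundant gene of the cluster in both libraries. On the deposited scale it was the only measured gene with a number from 1 to 8 that was lower in the knockout library. Posterior genes of the cluster were nearly level. Hoxa9, known from blood progenitors, stood at 18.5 and 20.95 TPM, Hoxa10, which acts in the uterus, at 24.5 and 20.3 TPM, Hoxa11, which acts in uterus and kidney, at 11.9 and 15.7 TPM, and Hoxa13 at 22.6 and 20.4 TPM. Antisense transcripts overlap 20.4% of the exon bases of Hoxa7, 35% of Hoxa11, 25.4% of Hoxa3 and 16% of Hoxa4. No source used here says whether the libraries kept the strand. Exons of another gene on the same strand overlap 15% of the exon bases of Hoxa2 and 8% of those of Hoxa3.

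Cluster C (chromosome 15, 102921131 to 103036856) was close to silent in the wild-type library. Its 5 genes summed to 0.5 TPM (wild type) and 9.98 TPM (knockout). Hoxc6, a gene of the thoracic region, made up most of the latter, at 0.34 and 8.67 TPM (25.5-fold higher), which correspond to about 4.7 and 110.5 reads. Hoxc4 stood at 0.05 and 0.64 TPM. Hoxc5 and Hoxc8 were listed at 0 (wild type) against 0.34 and 0.15 TPM (knockout), and Hoxc10 stood at 0.11 and 0.18 TPM, the level of a few reads.

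The TPM of all 35 genes summed to 742 (wild type) and 578 (knockout). Posterior genes made up 81.5% of this sum in the wild-type library and 48.4% in the knockout library, central genes 15.5% and 42.6%, and anterior genes 2.97% and 9.0%. Hoxb13 alone gave 57.8% and 20.5%. By cluster, B held 72.5% and 68.5% of the Hox TPM, A 20.6% and 26.4%, D 6.84% and 3.40%, and C 0.07% and 1.73%.

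The TPM-weighted mean of the paralog number was 11.1 (wild type) and 8.27 (knockout). Without Hoxb13 it was 8.52 and 7.06, so that the difference was smaller but had the same sign. Within cluster B it was 11.8 and 8.46, within D 12.1 and 8.98, and within A 8.26 and 7.85.

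**Figure D3:**
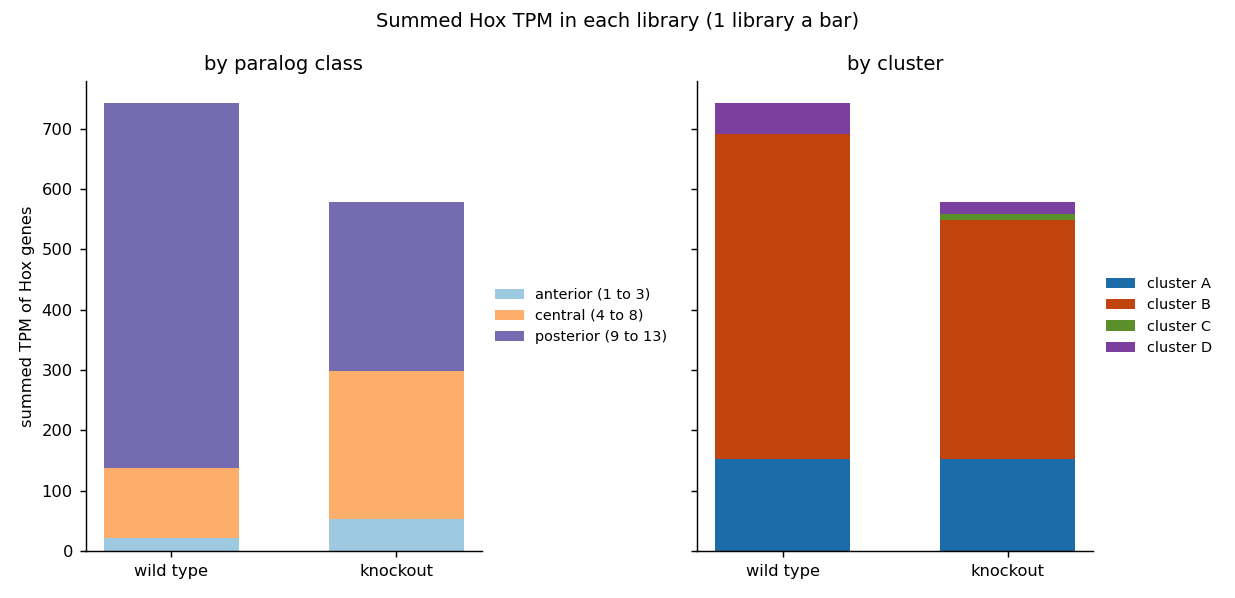
Summed TPM of the 35 Hox genes (y axis) in the wild-type and the knockout library, 1 library a bar, stacked by paralog class (left) and by cluster (right). The posterior part shrinks from 605 to 280 TPM and the central part grows from 115 to 246 TPM, while the part of cluster A is nearly equal in the 2 bars. Most of the posterior difference lies in 1 gene, Hoxb13, at 429 and 119 TPM.

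Paralogs with the same number did not always move alike. In group 13, Hoxb13 and Hoxd13 had log2 ratios of -1.85 and -2.17, and Hoxa13 one of -0.14, and the sum of the group was 490.4 and 147.6 TPM. The ratio of Hoxb13 to Hoxd13 was similar in the 2 libraries, at 11.1 and 13.9, whereas that of Hoxb13 to Hoxa13 went from 19.0 to 5.80. In group 7, Hoxa7 was 7.75 times as abundant as Hoxb7 in the wild-type library and 1.3 times in the knockout library. Groups 2 and 8 had the closest ratios, with log2 values of 1.03 and 1.16 for Hoxa2 and Hoxb2 and of 1.61 and 1.53 for Hoxb8 and Hoxd8. In group 6 the log2 ratio ran from 0.41 (Hoxa6) to 4.32 (Hoxc6).

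Promoter windows from 250 bases before to 50 bases after the start site were available from RefSeq (GRCm38.p6) for 22 of the 35 genes, as 24 windows. The hexamer TTTATG, part of sites bound by Cdx proteins, was searched on both strands. It occurred in 5 of the 24 Hox windows (20.8%) and in 11.9% of all 32851 windows. The genes with it were Hoxd3, Hoxd4, Hoxb8, Hoxa7 and Hoxd11 (1 of its windows). Hoxd3, Hoxd4 and Hoxb8 were higher and the others lower in the knockout library. The half-site AGGTCA of nuclear receptors, also searched on both strands, occurred in 29.2% of Hox windows and 16.3% of all windows. The dinucleotide CG occurred a median of 14.5 times in the Hox windows (range 4 to 45) and 7 times in all windows (quartiles 3 and 20). The Hox median thus lay between the quartiles of all windows. A match describes these letters only and is not evidence of binding.

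The windows of Hoxb8 (chr11:96281655-96281954, plus strand), Hoxa7 (chr6:52218524-52218823, minus strand) and Hoxd13 (chr2:74667975-74668274, plus strand) are shown, with TTTATG or its reverse complement in capitals. The hexamer is present in the window of a gene that was higher (Hoxb8) and of a gene that was lower (Hoxa7) in the knockout library, and these letters are not in that of Hoxd13, which holds 37 CG dinucleotides.
Hoxb8: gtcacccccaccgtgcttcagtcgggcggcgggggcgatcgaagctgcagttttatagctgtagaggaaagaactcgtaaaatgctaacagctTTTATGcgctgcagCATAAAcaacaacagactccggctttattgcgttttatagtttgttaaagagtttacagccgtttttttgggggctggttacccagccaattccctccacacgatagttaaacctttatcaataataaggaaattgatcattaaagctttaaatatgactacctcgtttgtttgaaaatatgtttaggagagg
Hoxa7: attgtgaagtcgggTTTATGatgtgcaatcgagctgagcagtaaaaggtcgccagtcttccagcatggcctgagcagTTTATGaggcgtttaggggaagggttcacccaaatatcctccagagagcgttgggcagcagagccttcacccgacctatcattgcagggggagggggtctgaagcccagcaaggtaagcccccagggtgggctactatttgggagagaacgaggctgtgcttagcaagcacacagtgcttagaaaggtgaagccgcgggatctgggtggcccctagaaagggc
Hoxd13: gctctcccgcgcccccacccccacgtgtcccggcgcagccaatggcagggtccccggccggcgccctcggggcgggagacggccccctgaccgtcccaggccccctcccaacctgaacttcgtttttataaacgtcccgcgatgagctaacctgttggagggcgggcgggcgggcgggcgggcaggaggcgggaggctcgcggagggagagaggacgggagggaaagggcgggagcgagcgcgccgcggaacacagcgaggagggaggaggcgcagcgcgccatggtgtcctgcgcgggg

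Genes that work with Hox proteins or act on the clusters were given from lists, of which 2-fold counts are set beside the 23.1% higher and 5.25% lower of all measured genes. Cdx genes encode ParaHox factors that specify the gut and activate Hox genes, and RNA of Cdx1 and Cdx2 was abundant. Cdx1 stood at 589.6 TPM (wild type) and 389 TPM (knockout) and Cdx2 at 146 and 222 TPM, each within 2-fold. Pdx1, a factor of pancreas and duodenum, stood at 0.76 and 6.08 TPM (8.0-fold higher).

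TALE homeodomain proteins bind DNA together with Hox proteins. The list also counts Pbxip1, which is not of this family, and Tgif genes. Of its 9 measured members 3 were higher by 2-fold or more and none (0) was lower by as much, with a median log2 ratio of 0.50. Among the Pbx, Meis and Pknox genes only Meis2 was measured as 2-fold higher, and the other higher members were Tgif genes. Meis2 stood at 0.5 and 5.55 TPM (11.1-fold higher) and the repressor gene Tgif1 at 34.96 and 99.96 TPM (2.86-fold higher). Meis3 stood at 23.98 and 17.8 TPM and Pbxip1, which encodes a binding partner of Pbx proteins, at 63.2 and 34.97 TPM.

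Polycomb proteins keep Hox genes silent, and 12 of 31 measured members were higher by 2-fold or more, with none (0) lower by as much (median log2 ratio 0.86). Relative to the median gene 7 were higher and 1 was lower by 2-fold or more, with a median of 0.47. Bmi1 stood at 5.7 and 34.4 TPM (6.03-fold higher) and Cbx6 at 1.81 and 11.6 TPM (6.39-fold higher), while Jarid2 stood at 28.6 and 17.0 TPM and Ezh1 at 28.7 and 21.2 TPM. The histone-binding subunit genes Rbbp7 and Rbbp4 had the highest means over both libraries, at 91.4 and 134 TPM and at 66.2 and 99.9 TPM. The list of Trithorax genes and H3K27 demethylases, which act in the opposite sense, also counts Ctcf, which is neither. It had 1 of 17 members 2-fold higher and none (0) lower, with a median of 0.16 (-0.23 relative to the median gene). This was Psip1 at 8.87 and 29.9 TPM, and Wdr5 stood at 19.5 and 37.1 TPM, Dpy30 at 79.7 and 117.8 TPM, Ctcf at 39.7 and 55.3 TPM, Setd1b at 22.2 and 17.6 TPM and Kdm6b at 42.2 and 38.1 TPM.

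Retinoic acid induces anterior Hox genes. In its pathway 4 of 12 measured genes were higher by 2-fold or more and 2 were lower by as much (median 0.16, or -0.23 relative to the median gene). The synthesis gene Aldh1a1 stood at 59.6 and 169 TPM (2.83-fold higher) and the receptor gene Rarg at 11.4 and 39.1 TPM (3.42-fold higher). Aldh1a3 stood at 2.16 and 0.44 TPM (4.91-fold lower), Dhrs9 at 40.9 and 18.8 TPM and the receptor gene Rxra at 59.6 and 48.1 TPM. Transcription factors of gut epithelium, as a comparison list, had 1 of 20 members 2-fold higher and 2 lower, with a median of -0.09. The 20 listed noncoding genes of the clusters were not analysed here.

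**Figure D4:**
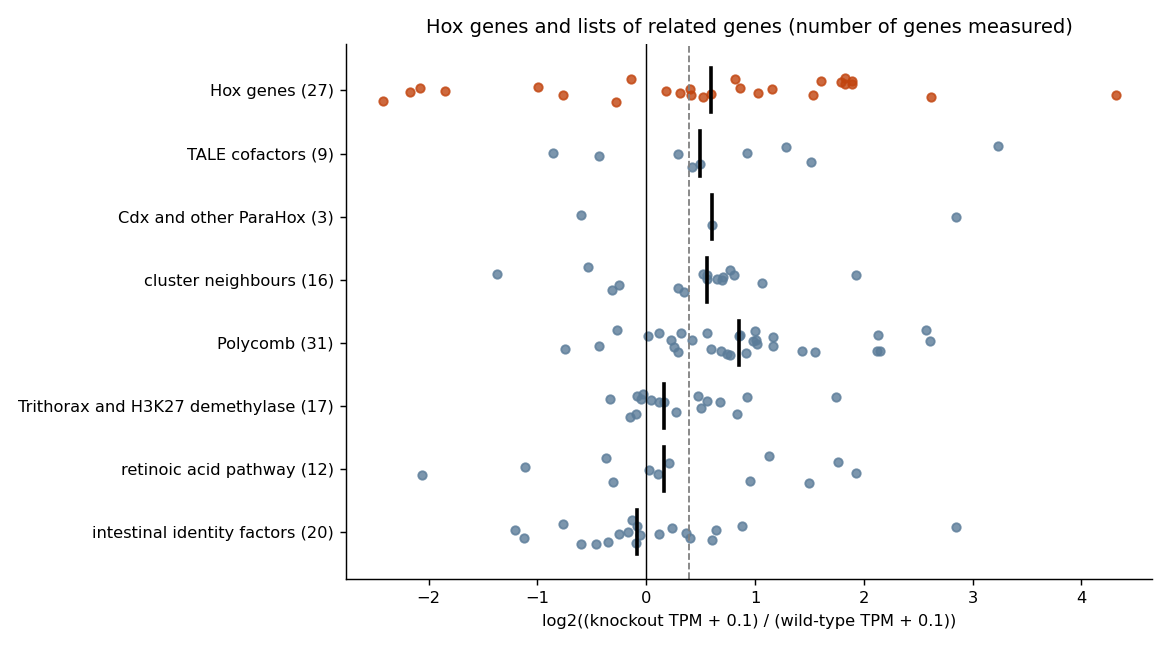
Log2 ratio of knockout to wild-type TPM (x axis, 0.1 added to each value) for measured Hox genes and for genes of 7 related lists (y axis, number of genes in brackets), 1 point a gene, with the median as a black bar and the median of all measured genes as a dashed line. Hox genes spread from -2.42 to 4.32, and the Polycomb median (0.86) lies to the right of the dashed line.

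Genes beside the clusters mostly lay within 2-fold. Of the nearest listed protein-coding gene on each side, Skap2 (142.8 kb from the anterior end of cluster A) stood at 47.6 and 38.1 TPM and Evx1 (52.6 kb from Hoxa13) at 1.27 and 2.12 TPM. Beside Hoxb13, Ttll6 (28.1 kb away) stood at 16.7 and 24.7 TPM, against the 3.62-fold lower value of Hoxb13. Beside Hoxb1, Skap1 (96.3 kb away), a T cell adaptor gene, stood at 1.92 and 0.68 TPM. Evx2, which lies 6.7 kb from Hoxd13, stood at 0.76 and 0.27 TPM (log2 ratio -1.22). Its mean was too low to be measured, so it is not in the count below. Mtx2, 60.7 kb from Hoxd1, stood at 61.3 and 90.1 TPM. Beside cluster C, Calcoco1 stood at 11.2 and 16.1 TPM and Smug1 at 8.83 and 11.2 TPM. Over the list of such genes, 2 of 16 were 2-fold higher (Cbx5 at 12.2 and 46.5 TPM and Hnrnpa1 at 170 and 354 TPM) and 1, Skap1, was lower, while Tax1bp1, which with Hnrnpa1 had the highest mean over both libraries, stood at 282 and 195 TPM.

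Markers of other cell types differed between the libraries together with the Hox genes, and mesenchymal cells of the gut also express Hox genes. Of 19 listed fibroblast and muscle markers 14 were measured, 8 of them higher by 2-fold or more and 3 lower by as much. The list summed to 74.1 TPM (wild type) and 394 TPM (knockout), with 9 and 7 members under 1 TPM. Vim stood at 20.9 and 167 TPM, Col1a2 at 3.76 and 64.4 TPM, Twist2 at 0.32 and 49.2 TPM and Foxf1 at 0.04 and 22.4 TPM. Acta2 stood at 4.06 and 0.81 TPM, Des at 1.77 and 0.52 TPM and Foxf2 was listed at 0 in both. Other markers did not follow Col1a2. Col1a1 was level, at 7.95 and 8.05 TPM, and Col3a1 (5.73 and 3.18 TPM) and Thy1 (6.69 and 2.94 TPM) were lower in the knockout library. Immune markers summed to 90.3 and 34.7 TPM, with Gzma at 22.1 and 6.75 TPM, and epithelial markers to 37189 and 21146 TPM.

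Of 13 measured enteroendocrine markers 7 were higher by 2-fold or more and 1 was lower, with a median log2 ratio of 1.12. Relative to the median gene 4 were higher and the median was 0.73. Neurod1 stood at 0.64 and 3.74 TPM, Pyy at 195 and 136 TPM and Tac1 at 45.9 and 4.46 TPM, and the list summed to 475.0 and 558 TPM. Endothelial markers summed to 6.2 and 5.6 TPM, and neuron and glia markers to 6.0 and 9.1 TPM. The part of these cells in the Hox values was not tested. In bulk RNA, fewer cells of a type and less RNA per cell cannot be told apart.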

How the data were processed

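Bulk RNA of 2 libraries, 1 a genotype, was measured, with an MGIEasy library kit per the labels' protocols. The authors deposited 1 gene table with FPKM values (fragments per kilobase and sequencing depth) and TPM values, both rounded to 2 decimals, per the file headers. The submitters' processing notes name Bowtie2, RSEM, DESeq2 and mm10, with neither versions nor their use.

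Of 18068 lines 1 held no values. No column was left out (0). TPM was used with its deposited scaling, and log2((knockout + 0.1)/(wild type + 0.1)) was computed, which understates differences of low genes. Folds are plain TPM ratios. For Hox genes they were left out where a value is at the level of about 3 reads. For listed genes they were left out where a value was 0.3 TPM or less. Depth was scanned on genes with 1 GENCODE transcript of 300 to 1100 bases. Positions are from RefSeq GRCm38.p6, whose identifiers matched all 35 genes, and overlaps and transcripts from GENCODE M21. Tools were Python 3.11.15, numpy 2.4.6, pandas 2.3.3 and matplotlib 3.10.9. The ratio and the trimmed mean scaling were tested on simulated data. Members and lists were chosen with earlier results of these data known. The rule names every Hox gene, and a few genes it names are counted but not reported here. Of each list, the rule took the 2 highest and 2 lowest ratios and the 2 most abundant measured genes, plus the gene next to each cluster end. Further markers named beyond the rule are Olfm4, Gata4, Lct, Foxf2, Col1a1, Col3a1 and Thy1. Alternatives were FPKM, trimmed mean and median scaling, other added values (0.01 and 1), other floors (none and 5 TPM) and a 1.5-fold threshold.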

Additional observations from a re-analysis of the deposited data

How the results depend on the processing

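With 1 library a group, a ratio was taken as moved when it changed by over 1.5-fold, and a count when it changed by over 1.5 times. Of 135 values of single measured Hox genes under alternatives, 130 were kept within this limit and none (0) of the called ones changed sign. The other 5 moved when 1 rather than 0.1 was added to each TPM. The trimmed mean and median scalings shift all log2 ratios alike, by 0.40 and 0.39, which is under 1.5-fold. Values under these scalings could therefore not move, and FPKM is close to a fixed multiple of TPM in each library. The count of 130 was thus partly fixed in advance and is no measure of stability. The median of cluster A turned to -0.048 under trimmed mean scaling and to -0.035 with the median gene set to 0. The median of cluster C, which rests on Hoxc6, was 2.85 with 1 added and 2.14 with no floor, and that of cluster D was -2.17 with a floor of 5 TPM. With that floor 7 Hox genes were 2-fold higher and 2 lower. From FPKM 2 were lower, since fewer genes pass the floor of 1, and the posterior median was -0.08. The 2-fold higher count of anterior genes, 4, was 2 from FPKM, under both scalings, with 1 added and with the floor of 5. The difference in weighted paralog number, -2.84, was -1.464 without Hoxb13. Cell-type and pathway lists changed sign in median as follows. Trithorax genes turned to -0.24 and -0.23 under trimmed mean and median scaling, retinoic acid genes to -0.24 and -0.23, stem cell markers to -0.16 and -0.14, endothelial markers to -0.25 and -0.24, and neuron and glia markers to -0.14 and -0.13. Proximal small intestine markers turned to 0.031 from FPKM and to 0.33 with no floor. No paired analysis was possible because each group holds 1 library. Depth limits Hoxb1, Hoxc4, Hoxc5, Hoxc6, Hoxc8, Hoxc10, Hoxd1 and Hoxd9, which lie near the level of a few reads in at least 1 library. It also limits Hoxd3 (about 7.7 reads in the wild-type library) and Hoxd11 and Hoxd12 (about 5.5 and 7.3 reads in the knockout library).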

Other observations

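Values below are for the wild-type and then the knockout library. In the knockout library 6 of 24 measured colon markers were higher by 2-fold or more and 11 were lower by as much. Clca4b stood at 803 and 4.86 TPM (165-fold lower) and the sodium channel gene Scnn1g at 3.95 and 0.09 TPM, and Lypd8, which had the highest mean over both libraries, at 30464 and 14550 TPM. Sycn stood at 171 and 805 TPM (4.71-fold higher) and Ang4 at 583 and 2679 TPM (4.6-fold higher).

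Of 10 measured distal small intestine markers 1 was 2-fold higher and 2 were 2-fold lower. Fabp6, the ileal bile acid binding protein gene, stood at 50.5 and 8.39 TPM (6.02-fold lower) and Slc10a2, the ileal bile acid transporter gene, at 10.3 and 17.7 TPM. Guca2a stood at 1305 and 3990 TPM and Muc3 at 4061 and 1696 TPM. Of 6 measured proximal markers 1 was higher and 2 were lower. Slc40a1, the iron exporter gene, stood at 111 and 38.6 TPM, Fabp1 at 2.08 and 0.5 TPM and Rbp2 at 26.8 and 52.0 TPM. The relation of these values to those of the Hox genes was not tested.

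Among stem cell markers, 16 of 18 were measured, with 2 higher by 2-fold or more and 1 lower by as much. Bmi1, which is also a Polycomb gene, and Znrf3 (2.43 and 5.63 TPM) were the higher ones, and Smoc2 stood at 15.5 and 7.72 TPM. Slc12a2 stood at 55.2 and 62.1 TPM and Lrig1 at 36.4 and 49.2 TPM.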
